A study of Mus musculus with 6 samples.

Results

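The expression of 10 genes of the cytosolic nucleic acid sensing pathway, called members here, was followed in B16 mouse melanoma cells with and without the IFN-γ receptor chain IFNγR1. They were taken by symbol from the 55335 genes listed for each library, and 9 of the 10 had enough assigned counts to be tested among 13642 genes. RNA-seq was made of 3 cultures of scrambled control cells (replicates 1, 2 and 3) and 3 cultures of IFNγR1KO cells (replicates 10, 11 and 12), none with added interferon. The question was which intracellular signaling differs when IFN-γ signaling is lost. Both cell types were B16-BL6 cells, a line derived from a C57BL/6 mouse melanoma. Both had been transduced with a CRISPR-Cas9 lentivirus and selected with puromycin: the scrambled control cells, whose genotype the labels give as WT, carried a guide against GFP, and the IFNγR1KO cells carried guides against exon 1 of Ifngr1. IFNγR1KO cells were grown from single clones screened by their PD-L1 response to IFN-γ and their receptor level. Whether the 3 cultures came from 1 clone is not given in the sources used here, so that loss of the receptor and the clone cannot be told apart. P-values measure the spread between these cultures, which were seeded in triplicate.

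Cells detect viral or misplaced nucleic acid in the cytosol through a small set of proteins. RIG-I (Ddx58), MDA5 (Ifih1) and LGP2 (Dhx58) are RNA helicases that bind viral RNA and act through the mitochondrial adaptor MAVS. AIM2 and ZBP1 bind DNA and Z-form nucleic acid and trigger inflammatory cell death, and STING (Tmem173) is the adaptor that receives the signal of the DNA sensor cGAS. MAVS and STING both use the kinase TBK1 and its relative IKKε (Ikbke) to activate IRF3 and so the type I interferon genes, and the nuclease TREX1 removes DNA from the cytosol. Several sensors are themselves induced by interferons in many cell types.

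The libraries were first checked. Scrambled control libraries held 9402640 to 10579788 counts on genes and IFNγR1KO libraries 6698956 to 7409479, so that 1 count stood for 0.0966 to 0.109 CPM (counts scaled to the total of the library and its TMM factor) in the former and 0.135 to 0.142 CPM in the latter. Ifngr1, the targeted gene, averaged 15.9 ± 1.35 CPM in the former and 11.5 ± 0.0902 CPM in the latter (SD, n = 3 each), and its log2 fold change of -0.47 (SE 0.16) had an adjusted p of 0.0729 in edgeR's quasi-likelihood test. Its transcript was thus still counted, and within these counts only the labels identify the knockout. The study checked receptor loss by flow cytometry and reported no IFN-γ response in IFNγR1KO cells. All 8 melanocyte markers were expressed, from Mitf at 206 CPM to Dct at 14420 CPM in scrambled control, and none passed the test, with 1 lower and 1 higher at an unadjusted p under 0.05. Of 12 leukocyte markers 5 were at 0 in every library, Cd3e, Itgam, Itgax and Adgre1 among them, and Ptprc and Tyrobp had 1 count each, in a single library. The 4 leukocyte markers that were tested did not pass (1 lower and 0 higher at an unadjusted p under 0.05), and the list summed to between 17.97 and 19.3 CPM in scrambled control and between 13.5 and 17.1 CPM in IFNγR1KO libraries. Of 5 endothelial markers 4 were at 0 in every library, and the list summed to at most 0.217 CPM. Of 6 fibroblast markers Lum and Thy1 were at 0, Dcn had 1 count in a single library, and the collagen genes Col1a1 and Col1a2 rose by 1.96 and 1.07 on the log2 scale. Both collagen genes passed the test with an adjusted p under 0.05. They were 2 of the 3 fibroblast markers tested (66.7%), where 7.73% of all genes tested were called higher. Pdgfra, the remaining fibroblast marker, had a log2 fold change of -0.77 (SE 0.28, unadjusted p = 0.0177 and adjusted p = 0.0866 in edgeR's test), with no overlap of the groups. The fibroblast list summed to between 57.0 and 75.5 CPM in scrambled control and between 129 and 133 CPM in IFNγR1KO libraries. The part of these marker genes in the results was not tested, and in bulk RNA fewer cells of a type and less RNA per cell cannot be told apart.

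Scrambled control replicate 3 and IFNγR1KO replicate 12 stood apart from the other replicates of their groups. The chi-square per degree of freedom between replicates was 9.25 for scrambled control 1 and 2 and 2.62 for IFNγR1KO 10 and 11, and between 15.02 and 22.7 for every pair that held one of these libraries. Across 13642 genes their deviations from the group means correlated with r = 0.637, while each of them was negatively correlated with the other replicates of the opposite group (between -0.508 and -0.238 for replicate 12 and between -0.496 and -0.369 for replicate 3). Deviations within a group sum to 0, so the negative values are tied to the positive one and add no separate evidence. The labels give no batch. Calls of members, and counts over the lists, that differ without both libraries or with a term for them in the fit are given beside the results.

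Aim2 and Zbp1 fell in IFNγR1KO cells, while the RNA helicases, the adaptors and the kinases did not pass the test. Of the 9 members tested, 2 were lower and 0 higher with an adjusted p under 0.05 in edgeR's quasi-likelihood test. Of all genes tested, 7.62% were called lower and 7.73% higher, or 15.3% in either direction. With an absolute log2 fold change above 1 as well, the 2 calls among members were unaltered, and 1.96% of all genes were called lower and 3.25% higher. DESeq2's Wald test also called 2 members lower and 0 higher, where it called 7.17% of all genes lower. At an unadjusted p under 0.05 in edgeR's test 5 members were lower, and 0 members were higher. Of the 13642 genes tested, 2015 were lower and 1933 higher at that threshold. Aim2 and Zbp1 were under the minimum of 10 counts in every IFNγR1KO library and so passed the filter on low counts only through the scrambled control libraries. Their share is therefore a description of the members and not a measure of the pathway. The median log2 fold change of the 9 was -0.36, also with Aim2 set to its bound, against -0.00 for all genes tested.

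**Figure D1:**
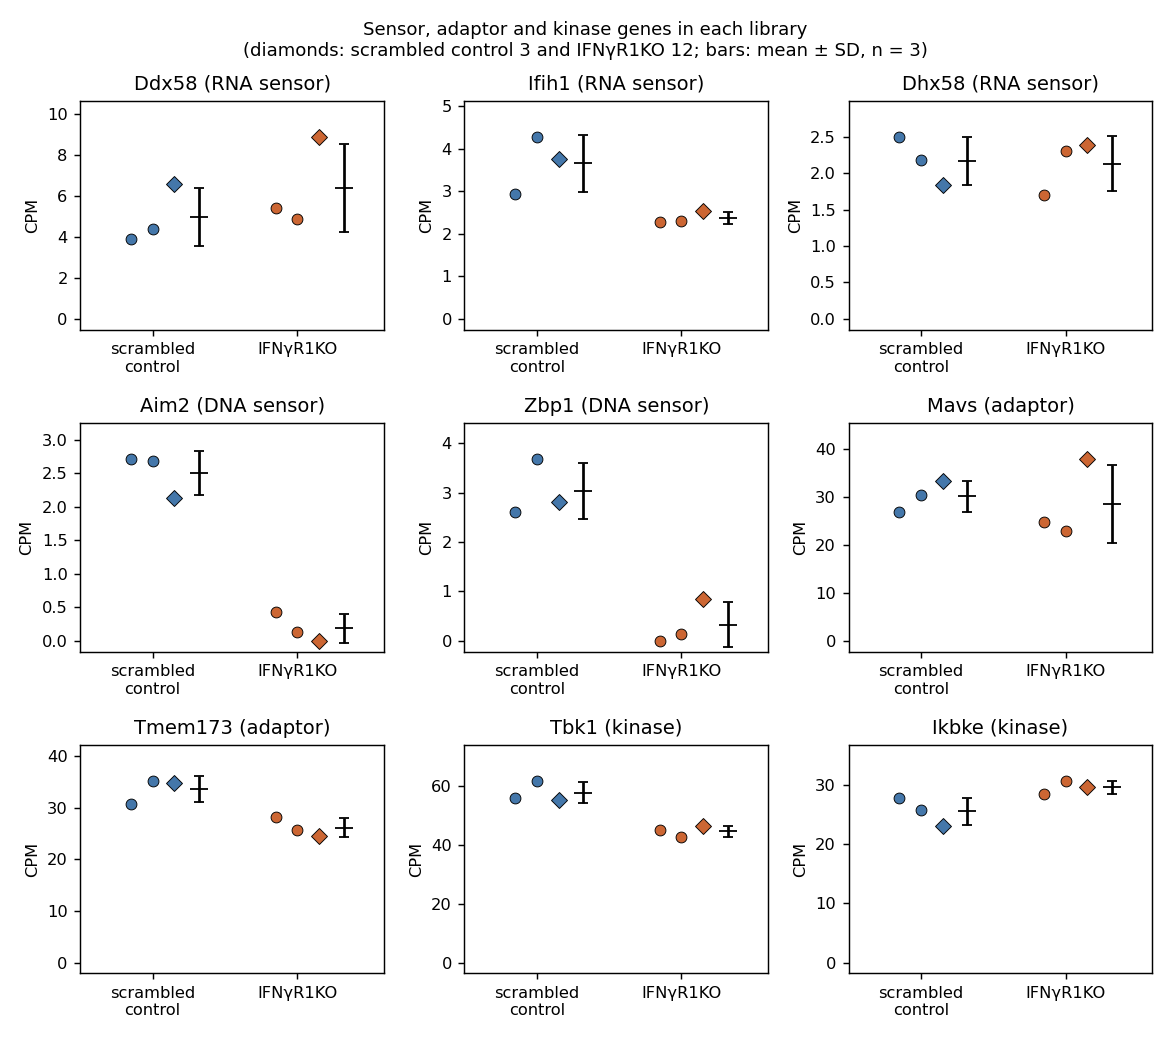
CPM of the 9 tested members in each library (circles, with diamonds for scrambled control replicate 3 and IFNγR1KO replicate 12), with mean ± SD of 3 libraries beside them on an axis in CPM that differs between panels. Aim2 and Zbp1 lie near 0 in IFNγR1KO cells, and Ddx58 and Mavs are highest in the library marked by a diamond in both groups.

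Aim2 (ENSMUSG00000037860.15) encodes the sensor of double-stranded DNA that assembles the inflammasome. Scrambled control replicates 1, 2 and 3 held 25, 27 and 22 counts, and IFNγR1KO replicates 10, 11 and 12 held 3, 1 and 0. Every IFNγR1KO library was at or under the floor of 3 counts, and every scrambled control library was well above it. The mean of 2.51 ± 0.332 CPM (SD, n = 3) in scrambled control against a floor of 0.418 CPM made Aim2 at least 6-fold lower in IFNγR1KO cells, with the floor taken as 3 counts in each library. The fitted log2 fold change was -3.65 (SE 0.58, adjusted p = 0.00137), a value that depends on the prior count at such low levels. Under the 13 alternatives its adjusted p ran from 5.67e-08 to 0.015 and its fitted value from -4.92, without IFNγR1KO replicate 10, to -3.11, without IFNγR1KO replicate 12.

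Zbp1 (ENSMUSG00000027514.14) encodes a sensor of Z-form RNA and DNA that engages RIPK3. In the same order its counts were 24, 37 and 29 with the receptor and 0, 1 and 6 without it. The 6 counts were in replicate 12, one of the libraries that stand apart, and the groups did not overlap with or without it. Scrambled control cells averaged 3.03 ± 0.573 CPM and IFNγR1KO cells 0.326 ± 0.453 CPM (SD, n = 3 each), and the log2 fold change was -3.17 (SE 0.59, adjusted p = 0.00367 in edgeR's test). Without replicate 12 the fitted value was -5.19 (adjusted p = 3.06e-05), and without both libraries that stand apart it was -5.24 (adjusted p = 7.13e-05). Zbp1 then had 0 and 1 counts in IFNγR1KO libraries, under the floor of 3, so both values depend on the prior count. Its adjusted p stayed between 2.65e-08 and 0.0323 under the 13 alternatives.

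Both genes lay in stretches where their tested neighbors did not pass the test. On GRCm38, Aim2 spans chromosome 1 from 173350879 to 173466040 on the plus strand, and the closest tested gene before it was Pigm, 967 kb away with a log2 fold change of 0.29 (SE 0.15, adjusted p = 0.229). Zbp1 spans chromosome 2 from 173206612 to 173218923 on the minus strand, and its closest tested neighbor Pmepa1, 5.54 kb away, had a log2 fold change of -0.58 (SE 0.23, adjusted p = 0.114). None of the 3 tested genes nearest before Aim2, or of the 3 nearest on either side of Zbp1, passed. Neighbors were looked at after the values of both genes were seen.

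The genes that surround Aim2 in the genome are its relatives of the PYHIN family, whose products bind DNA, and all 10 of them on the list were under the filter. Ifi203 had 8, 7 and 17 counts in scrambled control and 0, 1 and 1 in IFNγR1KO libraries. Ifi211 had 7, 6 and 8 against 1, 0 and 2, and Ifi204 had 12, 5 and 7 against 2, 2 and 3. In these 3 of the 10 genes the groups did not overlap in counts, at lower totals in IFNγR1KO libraries, or in CPM. Of all genes tested, which leave out these 10, 16.6% had CPM without overlap and lower in IFNγR1KO cells. Mndal had 2, 1 and 4 counts against 0, 1 and 0, Ifi207 had 1 count in a single library, and Ifi205, Ifi206, Ifi208, Ifi209 and Ifi213 were at 0 in all 6 libraries. These genes share similar sequences, so that reads could have been set aside as aligned to several places, and they were described after their values were seen.

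The 3 RNA helicases were low and did not pass the test. Ddx58 (ENSMUSG00000040296.15) was at 3.91, 4.38 and 6.57 CPM in the scrambled control libraries and at 5.40, 4.88 and 8.86 CPM in the IFNγR1KO libraries. In both groups the highest value was in the library that stands apart, and the groups overlapped. The log2 fold change was 0.36 (SE 0.29, adjusted p = 0.46), with an SE of 0.20 and an adjusted p of 0.185 when both libraries had a term in the fit. It ran from 0.04 without IFNγR1KO replicate 12 to 0.62 without scrambled control replicate 3, and passed under none of the 13 alternatives. Ifih1 (ENSMUSG00000026896.14) was at 2.93, 4.28 and 3.77 CPM in scrambled control and at 2.27, 2.30 and 2.53 CPM in IFNγR1KO cells, without overlap between the groups. Its log2 fold change was -0.63 (SE 0.28) with an unadjusted p of 0.0429 and an adjusted p of 0.156, and it passed under none of the 13 alternatives (adjusted p between 0.0884 and 0.357). Dhx58 (ENSMUSG00000017830.15), the helicase without a signaling domain that modulates the other two, was at 2.50, 2.19 and 1.84 CPM against 1.71, 2.30 and 2.39 CPM. Its values overlapped almost wholly, with a log2 fold change of -0.02 (SE 0.31, adjusted p = 0.975), and exons of an antisense gene, Dhx58os, cover 4.31% of its exonic length.

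RefSeq promoter windows on GRCm38.p6, which hold 250 bases before and 50 after a transcription start, were at hand for 7 members and not for Dhx58, Zbp1 and Tmem173. They were searched on both strands for GAAA and again GAAA after any 2 bases, the core of the interferon-stimulated response element (ISRE) that IRF factors bind, and for TTCNNNGAA, the core of the GAS element of genes induced by IFN-γ, where N is any base. The ISRE core was in 3.44% of all 32851 windows and the GAS core in 8.30%. The ISRE core matched in Ddx58 and Ifih1, just after the start in both, and neither core matched in the windows of Aim2, Mavs, Tbk1, Ikbke or Trex1. A match is a matter of letters and not evidence of binding. The 30 bases around the matches, on the strand of the gene, are shown with the match in capitals, for the helicase genes whose values lay on opposite sides of 0. They span chr4:40239804-40239833 for Ddx58, where bases 3 to 12 after the start match on the other strand, and chr2:62646206-62646235 for Ifih1, where bases 33 to 42 match.
Ddx58: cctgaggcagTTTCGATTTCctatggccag
Ifih1: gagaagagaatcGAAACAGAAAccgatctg
For Aim2, one of the members that fell, the 250 bases before the RefSeq start are given in lower case, since they hold no match. They span chr1:173420354-173420603 on the plus strand, downstream of the first base of the gene given above, so that other starts of Aim2 are annotated before this one.
Aim2: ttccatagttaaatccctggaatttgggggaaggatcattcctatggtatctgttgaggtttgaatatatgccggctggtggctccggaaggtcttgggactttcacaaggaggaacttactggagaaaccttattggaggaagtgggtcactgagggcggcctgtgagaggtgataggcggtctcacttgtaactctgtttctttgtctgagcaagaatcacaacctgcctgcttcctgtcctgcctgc

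The adaptors were among the more abundant members. Mavs (ENSMUSG00000037523.13), the adaptor of the RNA helicases, was at 26.7, 30.2 and 33.1 CPM in scrambled control and at 24.7, 22.9 and 37.8 CPM in IFNγR1KO cells. As for Ddx58, the highest value of each group was in the library that stands apart. Its log2 fold change was -0.08 (SE 0.19, adjusted p = 0.835), and the sign turned when IFNγR1KO replicate 10 or 11 was left out. Tmem173 (ENSMUSG00000024349.10), which encodes STING, was at 30.7, 35.2 and 34.9 CPM in scrambled control and at 28.1, 25.7 and 24.5 CPM in IFNγR1KO cells. The groups did not overlap, and the log2 fold change of -0.36 (SE 0.14) had an adjusted p of 0.105. With a term for both libraries that stand apart, Tmem173 had a log2 fold change of -0.37 (SE 0.11, adjusted p = 0.0172), and without both libraries -0.30 (SE 0.15, adjusted p = 0.175).

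Neither of the 2 kinases passed the test. Tbk1 (ENSMUSG00000020115.3), the kinase that phosphorylates IRF3, was at 56.1, 61.9 and 55.4 CPM in scrambled control and at 45.0, 42.7 and 46.4 CPM in IFNγR1KO cells. Each IFNγR1KO library was below each scrambled control library, and the log2 fold change was -0.37 (SE 0.13, adjusted p = 0.0717). The call depended on the libraries that stand apart: without both, Tbk1 was lower by edgeR's test (log2 fold change -0.43, SE 0.13, adjusted p = 0.0216, where 11.8% of all genes were called lower), and with a term for both it was lower as well (-0.37, SE 0.09, adjusted p = 0.00506). Ikbke (ENSMUSG00000042349.13) was at 27.8, 25.9 and 23.2 CPM in scrambled control and at 28.6, 30.8 and 29.7 CPM in IFNγR1KO cells. Every IFNγR1KO library was above every scrambled control library, but the log2 fold change of 0.21 (SE 0.14, adjusted p = 0.364) did not pass the test. In all, the groups did not overlap for 5 members that were lower (Aim2, Zbp1, Ifih1, Tmem173 and Tbk1) and 1 that was higher (Ikbke), where 16.6% of all genes tested did not overlap with the lower values in IFNγR1KO cells and 16% with the higher. The two-sided exact permutation test gave p = 0.1 for each of these 6, the smallest that 3 libraries against 3 allow. Groups without overlap always give this value, so it adds nothing to the lack of overlap. Aim2 and Zbp1 are in the count although they passed the filter only through the scrambled control libraries. With the term for both libraries 4 members were called lower, and 18.6% of all genes tested were called lower in that fit, so the count of calls rose for all genes too.

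**Figure D2:**
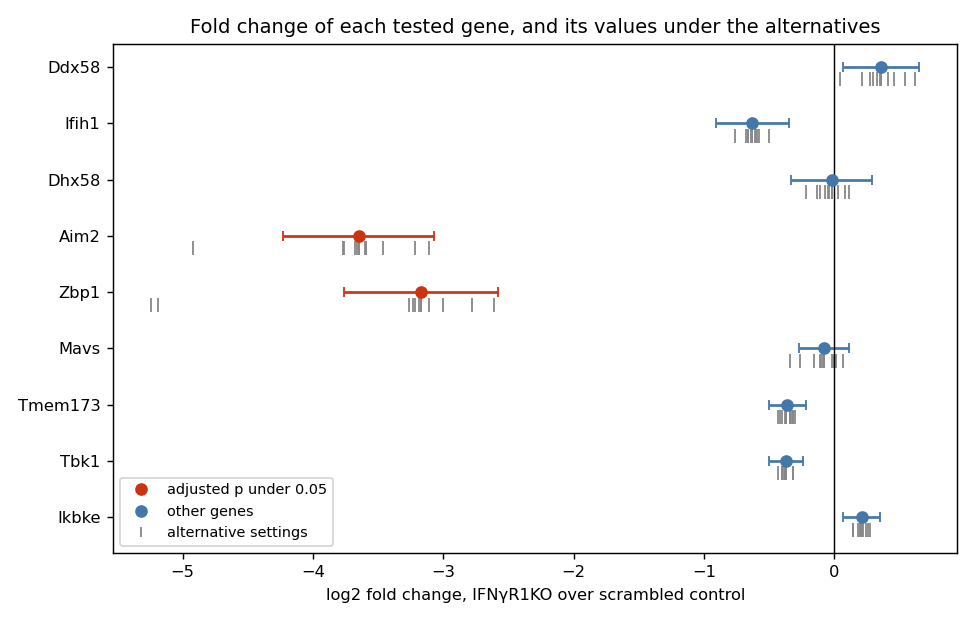
Log2 fold change of IFNγR1KO over scrambled control with its SE for the 9 tested members (points) and the values under 13 alternative settings (grey ticks). Aim2 and Zbp1 stand far below 0 under every setting drawn, and Dhx58 and Mavs have ticks on both sides of 0. The fitted value of Aim2, and those of Zbp1 without IFNγR1KO replicate 12, depend on the prior count.

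Trex1 could not be measured from these tables. It had 0 counts in all 6 libraries, and it lies on chromosome 9 from 109057933 to 109059734 on the minus strand, inside exons of Atrip on the same strand, which cover 100% of its exonic length. HTSeq sets a read aside as ambiguous when it lies wholly in exons of several genes, and between 1.57% and 1.85% of the reads of a library were set aside as ambiguous. Of the protein-coding genes whose exonic bases are all shared in this way, 141 of 141 were at 0 in every library, against 33.8% of the 20140 protein-coding genes with no such overlap. The 0 of Trex1 is therefore no level, and no fold change is given. Atrip, which encodes the partner of the checkpoint kinase ATR and shares 16% of its exonic bases with Trex1, was counted in every library, with means of 21.2 ± 2.87 and 21.3 ± 2.63 CPM without and with the knockout (SD, n = 3 each) and a log2 fold change of 0.01 (SE 0.17, adjusted p = 0.981).

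Per length of exon, among the tested members, the 4 signaling components lay above the sensors in scrambled control cells. Ikbke lay between the other signaling components and the sensors. Tbk1 was highest at 14.8 ± 0.911 CPM per kb (SD, n = 3), followed by Tmem173 at 12.3 ± 0.914, Mavs at 8.98 ± 0.964 and Ikbke at 2.84 ± 0.256 CPM per kb, and none of these neighbors in the order overlapped. Tbk1 was above 72% of the genes tested, Mavs above 60.1% and Ikbke above 29.3%. The sensors Zbp1, Aim2, Ddx58 and Dhx58 had 0.859, 0.717, 0.702 and 0.664 CPM per kb. Zbp1, Aim2 and Ddx58 each overlapped the next in the order, and Dhx58 did not overlap Ifih1. Ifih1 was last among the tested members at 0.448 ± 0.0833 CPM per kb, above 4.03% of the genes tested. In IFNγR1KO cells the 4 signaling components kept the same places, and Tmem173 and Mavs then overlapped (9.53 ± 0.679 and 8.51 ± 2.43 CPM per kb), while Zbp1 and Aim2 moved below Ifih1 to 0.0925 ± 0.128 and 0.0535 ± 0.0622 CPM per kb. Lengths are of all annotated exons together, which for Ikbke (9018 bases) may exceed the transcript that these cells make and so lower its value.

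**Figure D3:**
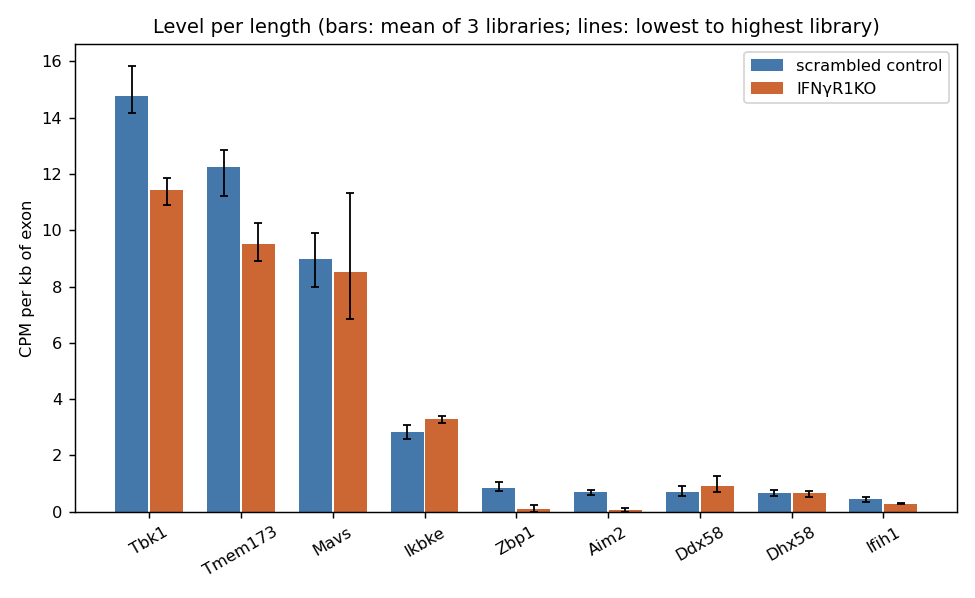
Mean level per length of exon (CPM per kb) of the 9 tested members in 3 scrambled control and 3 IFNγR1KO libraries, with lines from the lowest to the highest library. Tbk1, Tmem173 and Mavs were at 6.84 CPM per kb or more in every library, while the 5 sensors were at most 1.26 CPM per kb.

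The other nucleic acid sensors were read from a list of 45 symbols, of which 24 were tested. There 6 were lower (25% of those tested) and 1 was higher, beside the 7.62% and 7.73% of all genes given above. The median log2 fold change was -0.13. With an absolute log2 fold change above 1 as well, 0 were lower and 1 higher, against 1.96% and 3.25% of all genes. The list was written with earlier results of these data known, so its share is a description only. Cgas, the sensor of cytosolic DNA that makes the second messenger for STING, had 128, 139 and 169 counts in scrambled control and 45, 51 and 63 counts in IFNγR1KO libraries, with means of 14.7 ± 1.43 and 7.39 ± 1.30 CPM (SD, n = 3 each). The groups did not overlap, and Cgas fell by 0.99 on the log2 scale (SE 0.19, adjusted p = 0.00464). The DNA repair nuclease Mre11a (log2 fold change -0.65, adjusted p = 0.0108) and the helicases Dhx9 (-0.76, adjusted p = 0.0164) and Dhx15 (-0.54, adjusted p = 0.0187) were also lower, as were Eif2ak2, the kinase PKR that binds double-stranded RNA, and Xrcc6, the Ku70 subunit that binds DNA ends, which were named after their values were seen. Ifit1, which binds RNA without the host cap and is also an interferon output gene, was the gene that rose (log2 fold change 2.27, SE 0.28, adjusted p = 0.000286). The count of lower genes was 1 when IFNγR1KO replicate 10 or 11 was left out and 2 without scrambled control replicate 2, and 8 without IFNγR1KO replicate 12. It was 9 without both libraries that stand apart and 8 with a term for them. These fits called 11.8% and 18.6% of all genes lower. Cgas and Ifit1 were called under all 13 alternatives, Mre11a under 11, Dhx9 and Dhx15 under 10, Xrcc6 under 8 and Eif2ak2 under 7.

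**Figure D4:**
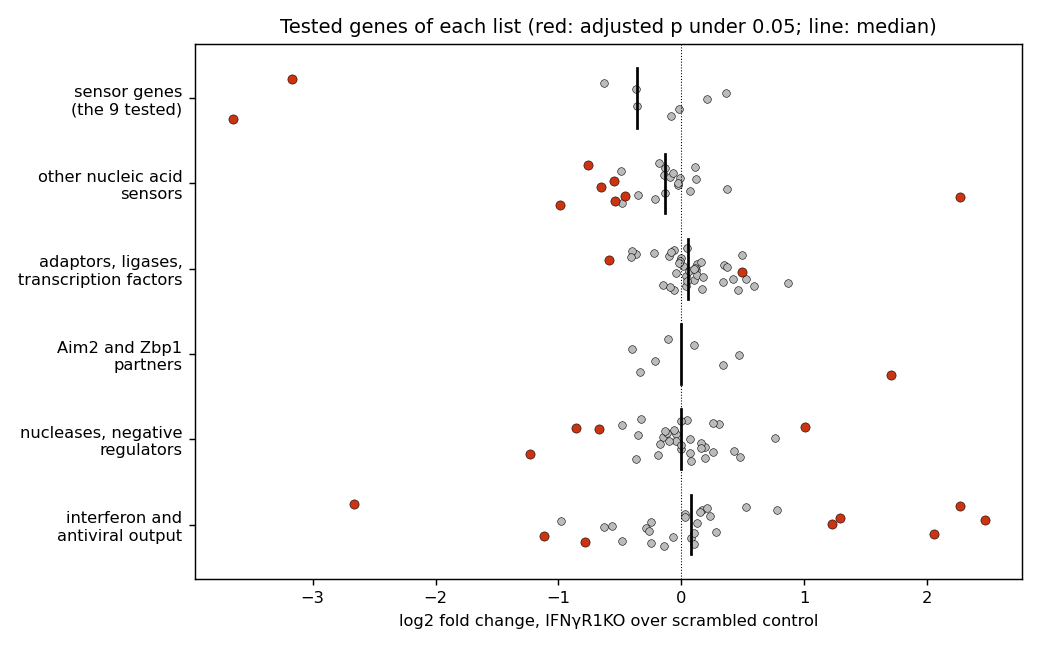
Log2 fold change of IFNγR1KO over scrambled control for each tested gene of the members and of 5 lists (points, red where the adjusted p was under 0.05, with the median as a line). The lists below the members have medians between -0.13 and 0.08.

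Between the sensors and the interferon genes, 40 of 42 listed adaptors, ubiquitin ligases and transcription factors were tested, and 1 was higher and 1 lower. That is 2.5% in each direction, beside 7.73% higher and 7.62% lower of all genes tested. Optn, an adaptor that binds ubiquitin and TBK1, rose by 0.49 on the log2 scale (SE 0.13, adjusted p = 0.0225), and Irf1, a transcription factor induced by IFN-γ, fell by 0.59 on that scale (SE 0.15, adjusted p = 0.0203). Irf3, the main substrate of TBK1, had a log2 fold change of 0.04 (SE 0.15, adjusted p = 0.899). Irf7, which amplifies the response, had 7, 11 and 5 counts in scrambled control and 0, 0 and 1 in IFNγR1KO libraries, was under the filter, and was at least 1.86-fold lower against the floor of 3 counts. Trim25, a ligase that acts on RIG-I, and Traf3, which links the adaptors to TBK1, had log2 fold changes of -0.41 and -0.40 (adjusted p = 0.229 and 0.216). With 1 library left out the list held 0 to 3 calls in each direction: 0 in both without scrambled control replicate 2 or IFNγR1KO replicate 10 or 11, 3 in both without IFNγR1KO replicate 12, and 3 higher without scrambled control replicate 3. Without both libraries that stand apart it held 5 higher and 3 lower genes, and with a term for them 8 and 4. Over all genes these fits called 1447 and 2243 higher, against 1054, and 11.8% and 18.6% lower, against 7.62%. Optn was called under 9 of the 13 alternatives and Irf1 under 10.

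Partners through which AIM2 and ZBP1 cause cell death were partly absent from both groups. Ripk3, the kinase that ZBP1 engages, and Il1b were at 0 in all 6 libraries, which allows at most 0.290 to 0.426 CPM in a library at the floor of 3 counts. Casp1, the caspase of the AIM2 inflammasome, had between 0 and 4 counts and was not tested. Pycard, the inflammasome adaptor ASC, was expressed in both groups, at 22.9 ± 5.91 and 19.7 ± 2.96 CPM (SD, n = 3 each). Mlkl, the pore-forming target of RIPK3, was at 69.6 ± 3.88 and 55.1 ± 1.91 CPM (SD, n = 3 each), and its log2 fold change was -0.34 (SE 0.13, adjusted p = 0.0912). Of the 8 tested genes of this list, 1 was higher (12.5%) and 0 were lower, beside 7.73% and 7.62% of all genes tested. DESeq2 gave the same counts. At an unadjusted p under 0.05 in edgeR's test 2 were lower, beside 2015 of the 13642 genes tested. With an adjusted p under 0.05, 1 was lower without both libraries that stand apart and 2 with a term for them. These fits called 11.8% and 18.6% of all genes lower. The higher gene was Casp4, the caspase that senses bacterial lipopolysaccharide, with 17, 16 and 19 counts in scrambled control and 51, 42 and 31 in IFNγR1KO libraries (log2 fold change 1.71, SE 0.28, adjusted p = 0.00193).

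Among 34 tested nucleases and negative regulators, 3 were lower (8.82%) and 1 higher (2.94%), beside 7.62% and 7.73% of all genes tested. Trim30a, a TRIM protein induced by interferon, fell by 1.23 on the log2 scale (SE 0.26, adjusted p = 0.0075), the phosphatase gene Ptpn6 fell by 0.67 (adjusted p = 0.0116) and Ttll12 fell by 0.86 (adjusted p = 0.0175). Nlrx1, a mitochondrial protein that restrains MAVS, rose by 1.01 on the log2 scale (SE 0.21, adjusted p = 0.00754), and antisense exons cover 11.9% of its exonic length. The count of lower genes was 1 without scrambled control replicate 2 or IFNγR1KO replicate 11, and that of higher genes was 2 without scrambled control replicate 3 and 3 without IFNγR1KO replicate 12. There were 5 higher and 6 lower genes without both libraries that stand apart, and 4 and 7 with a term for them. These fits called 1447 and 2243 of all genes higher, and 11.8% and 18.6% lower. The dNTPase Samhd1 had a log2 fold change of -0.48 (adjusted p = 0.0653) and the RNA-editing enzyme Adar of 0.08 (adjusted p = 0.775).

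At the end of the pathway, Ifnb1, the interferon gene that STING and MAVS induce, was at 0 in all 6 libraries. Among 31 tested output genes 5 were higher (16.1%) and 3 lower (9.68%), beside 7.73% and 7.62% of all genes tested. Their median log2 fold change was 0.08. Ccl5 rose by 2.47 on the log2 scale (SE 0.28, adjusted p = 0.000166), from 1.38 ± 0.304 to 7.70 ± 1.44 CPM (SD, n = 3 each). Isg20 and Isg15 rose by 2.06 on the log2 scale (adjusted p = 0.00242) and 1.29 (adjusted p = 0.00197), and the immunoproteasome subunit gene Psmb8 fell by 2.66 (SE 0.33, adjusted p = 0.000289), with antisense exons over 14.7% of its length. Cmpk2, a mitochondrial kinase of nucleotides, fell by 1.12 on the log2 scale (adjusted p = 0.00455) and Herc6 by 0.78 (adjusted p = 0.0153), which shares 13.7% of its exonic bases with another gene. Mx2, an antiviral GTPase named after its values were seen, was the fifth gene called higher (adjusted p = 0.0484), and its call was lost under 9 of the 13 alternatives, DESeq2 among them, with an adjusted p of up to 0.205. Ccl5, Isg15, Isg20, Ifit1, Psmb8 and Cmpk2 were called under all 13, and Herc6 under 11. The count of lower genes was 5 without both libraries that stand apart and 5 with a term for them. These fits called 11.8% and 18.6% of all genes lower. Output genes past the threshold lay on both sides of 0, in cells whose interferon-β transcript was not detectable at this depth.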

How the data were processed

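Paired-end reads of poly(A)-selected RNA had been aligned by the authors to GRCm38 with STAR 2.7.5a and counted per gene with HTSeq 0.11.2 (the study's methods and processing notes), and the authors deposited raw counts, 1 table per library. The annotation release and the strand setting are not given in the sources used here. Symbols, positions and exons came from GENCODE M21 of GRCm38, which holds 55154 of the 55335 identifiers, and promoter sequences from RefSeq (GRCm38.p6). In R 4.3.3, edgeR 4.0.16 was run with filterByExpr (minimum count 10, minimum total 15), TMM factors and the quasi-likelihood test. P-values were adjusted by Benjamini-Hochberg over all genes tested, and a call is an adjusted p under 0.05. The standard error is the absolute log2 fold change over the root of F. DESeq2 1.42.0 (Wald test; the study used 1.34.0) was an alternative, and both tools were tested on simulated data. Between 46.9% and 47.7% of listed reads were assigned to no gene and left out. The members, lists and rules were chosen with earlier results of these data known. Outside the members, the rule named up to 4 called genes per list and direction, Ifngr1, and 12 genes fixed by name. Some of the genes so chosen are not reported here. Of the 187 listed symbols of the pathway 186 were found (not Card8), and some stand in more than 1 list. No pair of replicates agreed within sampling noise. Floors of 3 counts cover counting error only.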

Additional observations from a re-analysis of the deposited data

How the results depend on the processing

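No paired analysis was possible because the groups share no replicate number (1 to 3 against 10 to 12). Under 13 alternatives (DESeq2, other scalings and filters, each library left out, and a pair of fits for the libraries that stand apart, which were chosen after seeing the data) Aim2 and Zbp1 kept their direction and their call. The sign of Dhx58 turned to 0.03 with total counts without scaling factors, to 0.08 without scrambled control replicate 1 and to 0.11 without IFNγR1KO replicate 10, and that of Mavs to 0.01 and 0.07 without IFNγR1KO replicates 10 and 11. With 1 library left out Dhx58 ran from -0.13 to 0.11 and Mavs from -0.34 to 0.07. Members called lower numbered 2 in each fit that left out 1 library and 4 with a term for both libraries that stand apart, which also called Ifngr1 lower (adjusted p = 0.0164). Over all genes, against 1054 higher and 1039 lower, there were 535 to 1372 and 457 to 1452 with 1 library left out (535, 570 and 571 higher and 552, 525 and 457 lower without scrambled control replicate 2 and IFNγR1KO replicates 10 and 11), 1617 lower without both libraries, and 2243 and 2540 with the term. Of the 1054 and 1039, 443 and 267 also had an absolute log2 fold change above 1. Over the 5 lists together, against 8 higher and 13 lower, there were 6 to 12 and 4 to 19 with 1 library left out (6 lower without scrambled control replicate 2, and 5 and 4 without IFNγR1KO replicates 10 and 11), 15 and 23 without both libraries and 18 and 26 with the term, and 3 lower genes also passed the limit on the fold change. The 8 and 13 were 5.97% and 9.7% of the 134 tested genes of the lists, beside 7.73% and 7.62% of all genes tested. The cause of the changes between fits was not tested. The sensors rest on few counts per library, which limits how small a change could pass.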
